A study of Mus musculus with 2 samples.

Results

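The synaptic vesicle and release machinery was described here as 51 named genes of the 24015 gene symbols counted in mouse J-RGCs, 1 type among the ganglion cells of the retina. The genes were taken by symbol, as coding for proteins that fuse, tether, prime or recycle synaptic vesicles, a choice made with earlier results of these data known although the rule itself used no measured value. All 51 were listed in both libraries. At postnatal day 6 Snap25, Syt1, Vamp2, Rph3a, Synj1, Snap91, Ppfia2 and Napb stood above the next gene of their families under every setting tried. In other families, among them the complexins, the RIMs, the ELKS proteins and the SV2 glycoproteins, neighbouring genes did not separate in the main comparison.

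Transmitter release works through a small set of protein families. Vesicles filled with transmitter are held near the active zone by synapsins, docked and primed by scaffold proteins such as RIM and Munc13, and fused by the SNARE proteins, which zip the vesicle membrane to the plasma membrane. Synaptotagmins sense calcium and complexins hold the SNARE complex ready, and after fusion the membrane is retrieved by clathrin adaptors, amphiphysin, dynamin and synaptojanin. Most of these proteins have several paralogues, which give synapses different speeds and strengths of release. Ganglion cells release glutamate from conventional synapses in the brain, whereas photoreceptors and bipolar cells of the retina use ribbon synapses.

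The series held 2 libraries in 1 group, A and B, from retina at postnatal day 6. A transgenic line, not named further in the labels, marked the J-RGCs with GFP, and they were enriched with magnetic beads before flow cytometry. Each library was a pool of 5 to 6 animals of its own litter, so the values of single animals were not seen. With no second cell type, age or treatment, every comparison is between genes or between the libraries. In bulk RNA, fewer cells of a type and less RNA per cell cannot be told apart.

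Gene counts came to 7916204 for A and 13744313 for B. Levels are counts per 1000000 gene counts (CPM), with A given before B. For an unread gene 3 counts set the ceiling, 0.379 CPM for A and 0.218 CPM for B, for counting error only. All 12 ganglion cell markers stood above 100 CPM in both libraries, and the J-RGC marker Jam2 stood at 2344 CPM in A and 1203 CPM in B. Of the markers of other retinal neurons, 4 of 9 bipolar cell genes (summed level 254 and 140 CPM), 4 of 9 amacrine cell genes (126 and 108 CPM) and 5 of 8 rod genes (44.8 and 41.0 CPM) were detected. So were 4 of 5 horizontal cell genes (135 and 123 CPM) and 2 of 8 cone genes (55.0 and 24.4 CPM). Among their defining genes Gnat1 of rods, Cabp5 and Pcp2 of bipolar cells and Chat of amacrine cells had no read in A and stood under 1 CPM in B. The lists of 8 Müller glia genes (542 and 477 CPM, 6 detected) and 10 microglia genes (307 and 373 CPM, 7 detected) summed higher in both libraries, and 7 vessel genes summed to 402 and 117 CPM, with 4 detected. The part of these cells in the values below was not tested.

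Of the 51 genes, 48 were detected at 1 CPM or more in both libraries, against 46.8% of all listed genes. The level reached 10 CPM in both libraries for 44 of them, against 6672 of the 24015 listed genes. It reached 100 CPM for 26, against 1568, and 1000 CPM for 3, against 87. The median gene stood at 141 CPM in A and 172 CPM in B, where the median of all 16969 genes with a count was 5.81 and 8.66 CPM. Per kilobase of exon the medians were 17.1 and 30.3 CPM per kilobase, against 1.505 and 2.273 for all genes with a count. The 51 genes together took 2.34% (A) and 2.96% (B) of gene counts. Snap25 alone made up 46.7% and 43.7% of that sum, and without it the other genes took 1.249% and 1.664%. By mean CPM 23 of the genes were among the highest 1000 of all listed genes. The 3 genes not detected were Cplx3, Cplx4 and Doc2b.

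**Figure D1:**
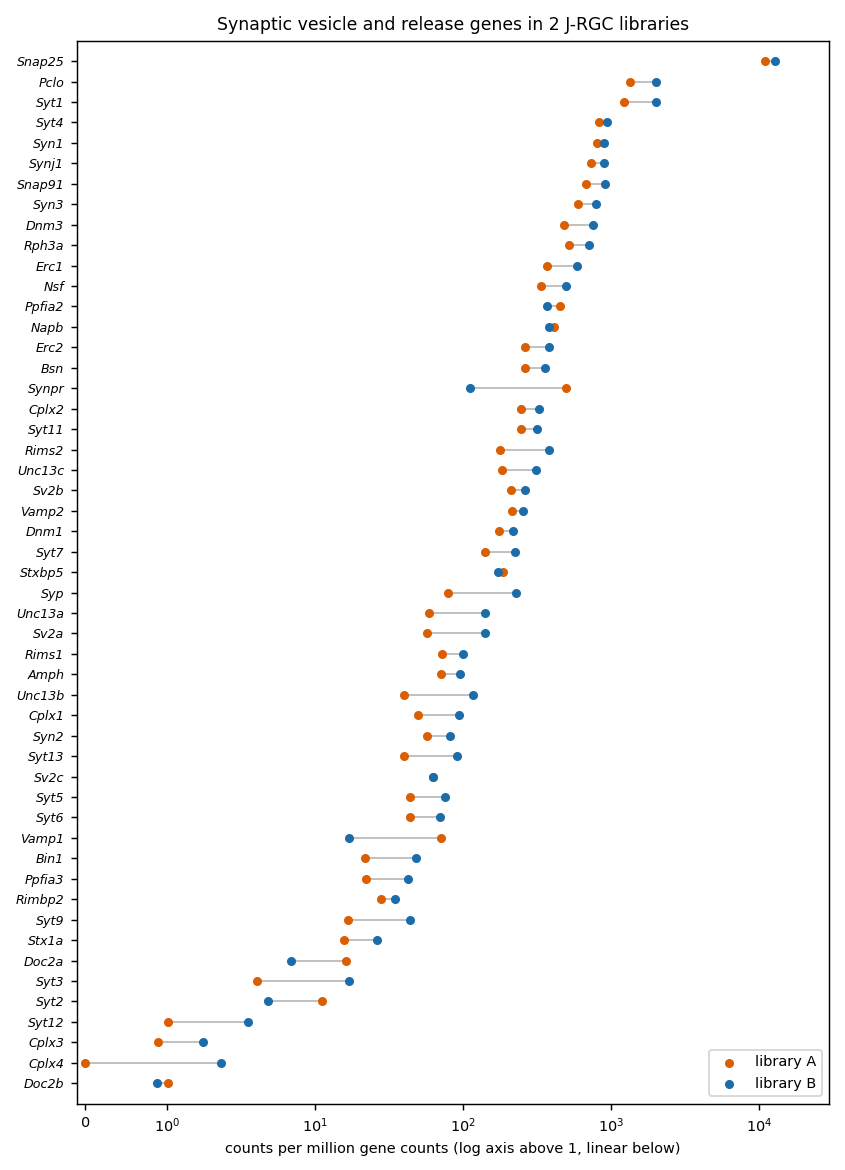
Level of each of the 51 release genes in library A and library B, in CPM on a log axis, ordered by mean level. Snap25 lies far to the right at 10951 and 12938 CPM, and Cplx3, Cplx4 and Doc2b lie at the left around the detection level of 1 CPM.

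CPM does not allow for transcript length, so paralogues were compared as CPM per kilobase of summed exons, written CPM/kb. A family's leader is its highest gene on that scale. It was called separated when it led in both libraries and the ratio between it and the next gene had a 95% interval that excluded 1. The interval carries counting error and the spread between the libraries, read for each gene from a trend with level. Over the 11272 genes fitted, the common biological coefficient of variation was 0.507. The interval does not allow for the leader having been picked from the same data. Among 23 families with 79 genes, 21 had the same leader in A and B, 20 were led by a gene of the set, and 13 leaders were separated. In 8 families the leader was separated under all 7 other settings tried: the fast synaptotagmins, the SNAP-25 family, the VAMPs, the liprins, the synaptojanins, AP180 with CALM, rabphilin with Doc2, and the SNAP adaptors.

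**Figure D2:**
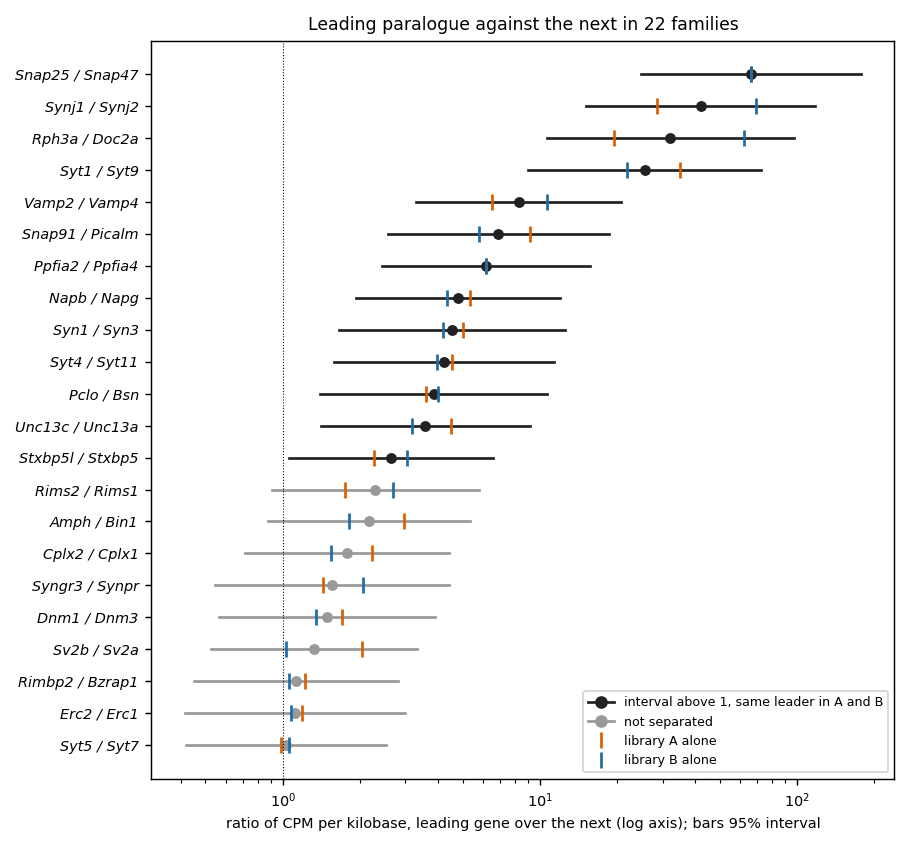
Ratio of each family's leader to the next gene of the family, per kilobase of summed exons on a log axis, with its 95% interval and the values of A and B alone. The 13 separated families have intervals to the right of 1, from the tomosyns at 2.63 to the SNAP-25 family at 66.2, and the 9 others drawn have intervals that hold 1 or leaders that differ between the libraries.

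Promoter sequence was looked at for letters that bear on neuronal genes. RefSeq windows from 250 bases before to 50 bases after the start, on GRCm38.p6, matched 38 of the 51 genes with 50 windows. The left part of the RE1 element, bound by the repressor REST that silences neuronal genes in other cells, was searched on both strands as TTCAGCACC, whose reverse complement is GGTGCTGAA. It was present in 3 of 50 windows, or 6%, against 0.371% of 32851 windows of all genes. The cyclic AMP response element TGACGTCA, which reads the same on both strands, was in 1 of 50 windows, against 1.79% of all windows. The GC box GGGCGG was in 62% of the windows against 35.7%, and TATAAA in 4% against 13.6%. The median GC content was 62.7% against 52.7%. These are matches of letters, not bound sites, and no gene's level was read from them. The 3 windows with the RE1 letters are written out 5′ to 3′ on the gene's own minus strand, with the matched letters in capitals. Their genes are the synapsin Syn1 (chrX:20920869-20921168), the liprin Ppfia3 (chr7:45366970-45367269) and the priming factor Unc13a (chr8:71671708-71672007). The RE1 letters begin at base -232 from the start in Syn1, at -46 in Ppfia3 and at 23 bases after it in Unc13a, there as the reverse complement. The second capital run in Syn1, at -159, is the cyclic AMP response element.
Syn1 promoter: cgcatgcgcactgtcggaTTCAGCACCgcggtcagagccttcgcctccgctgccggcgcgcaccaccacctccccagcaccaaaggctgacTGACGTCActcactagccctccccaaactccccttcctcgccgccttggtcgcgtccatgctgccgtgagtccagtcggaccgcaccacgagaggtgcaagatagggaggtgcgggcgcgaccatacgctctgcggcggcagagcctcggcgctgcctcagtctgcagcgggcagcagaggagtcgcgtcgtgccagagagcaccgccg
Ppfia3 promoter: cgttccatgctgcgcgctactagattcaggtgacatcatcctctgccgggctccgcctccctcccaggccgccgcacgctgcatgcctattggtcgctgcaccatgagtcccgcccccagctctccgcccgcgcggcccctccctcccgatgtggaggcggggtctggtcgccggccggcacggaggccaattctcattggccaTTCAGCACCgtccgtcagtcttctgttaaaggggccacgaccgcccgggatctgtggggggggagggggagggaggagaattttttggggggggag
Unc13a promoter: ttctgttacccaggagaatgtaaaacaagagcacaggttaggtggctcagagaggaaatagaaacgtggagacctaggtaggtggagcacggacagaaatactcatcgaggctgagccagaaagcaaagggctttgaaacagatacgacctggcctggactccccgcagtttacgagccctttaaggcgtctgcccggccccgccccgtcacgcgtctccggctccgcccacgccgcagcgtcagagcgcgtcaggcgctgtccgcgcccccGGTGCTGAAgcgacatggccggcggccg
The 3 genes were not alike in level. Syn1 stood at 810 CPM in A and 895 CPM in B, Unc13a at 58.6 and 140 CPM, and Ppfia3 at 22.1 and 42.8 CPM.

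The SNARE core was dominated by Snap25, the plasma membrane SNARE that joins syntaxin and the vesicle SNARE in the fusion complex. Snap25 stood at 10951 CPM in A and 12938 CPM in B (mean 11944 ± 1405, SD, n = 2) and ranked 3 among all genes by CPM and 4 per kilobase. Its relatives in general membrane traffic were far lower. Snap25 stood 66.2-fold above Snap47 per kilobase (95% interval 24.8 to 177), with 66.2 in each library. The ratio was 118-fold (43.8 to 316) to Snap29 and 220-fold (77.8 to 620) to Snap23. Snap25 held 97.4% of its family's summed level per kilobase in A and 97.2% in B. Counts per symbol do not tell its splice forms apart.

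Vamp2, or synaptobrevin 2, is the vesicle SNARE of most forebrain synapses, and it led the VAMPs. Vamp2 stood at 213 and 253 CPM, or 56.0 and 66.4 CPM/kb. Vamp1, the vesicle SNARE of many fast hindbrain and motor synapses, stood at 70.7 CPM in A and 17.0 CPM in B. The 2 libraries disagreed on it, and per kilobase Vamp2 was above it by 8.05-fold in A and 39.8-fold in B, for a pooled 14.2-fold (5.39 to 37.3). The gene next to Vamp2 per kilobase was Vamp4, of endosomes and the Golgi, 8.26-fold below it (3.31 to 20.6). Vamp8, of secretion outside neurons, stood under 1 CPM in both libraries. Vamp7 was listed at 0 in both, but its symbol matched no exon length, so it was not compared. Whether its 0 comes from the annotation used for counting was not tested.

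Stx1a, or syntaxin 1A, a plasma membrane SNARE and the third kind of partner in the complex, stood at 15.7 CPM in A and 26.1 CPM in B. Per kilobase it was at 5.88 and 9.80 CPM/kb, below Snap25 at 1613 and 1905 and Vamp2 at 56.0 and 66.4 CPM/kb in both libraries. Snap25 and Vamp2, a pair taken after their values were seen, differed by 28.7-fold per kilobase (10.3 to 79.8), with 28.8-fold in A and 28.7-fold in B.

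Fusion complexes are taken apart by the ATPase NSF with its adaptors, the SNAP proteins. Nsf stood at 336 CPM in A and 501 CPM in B. Napb, the neuronal adaptor beta-SNAP, stood at 413 and 382 CPM, 4.82-fold above Napg per kilobase (1.93 to 11.99) and 8.02-fold above the widely expressed Napa (3.06 to 21.02). Napb held 74.5% and 75.7% of its family's level. Stxbp5, or tomosyn, which blocks SNARE assembly by mimicking the vesicle SNARE, stood at 188 and 172 CPM. Its paralogue Stxbp5l stood 2.63-fold above it per kilobase (1.05 to 6.58), but the interval held 1 in either library alone (2.27-fold in A, 3.03-fold in B) and on coding length (1.32-fold).

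**Figure D3:**
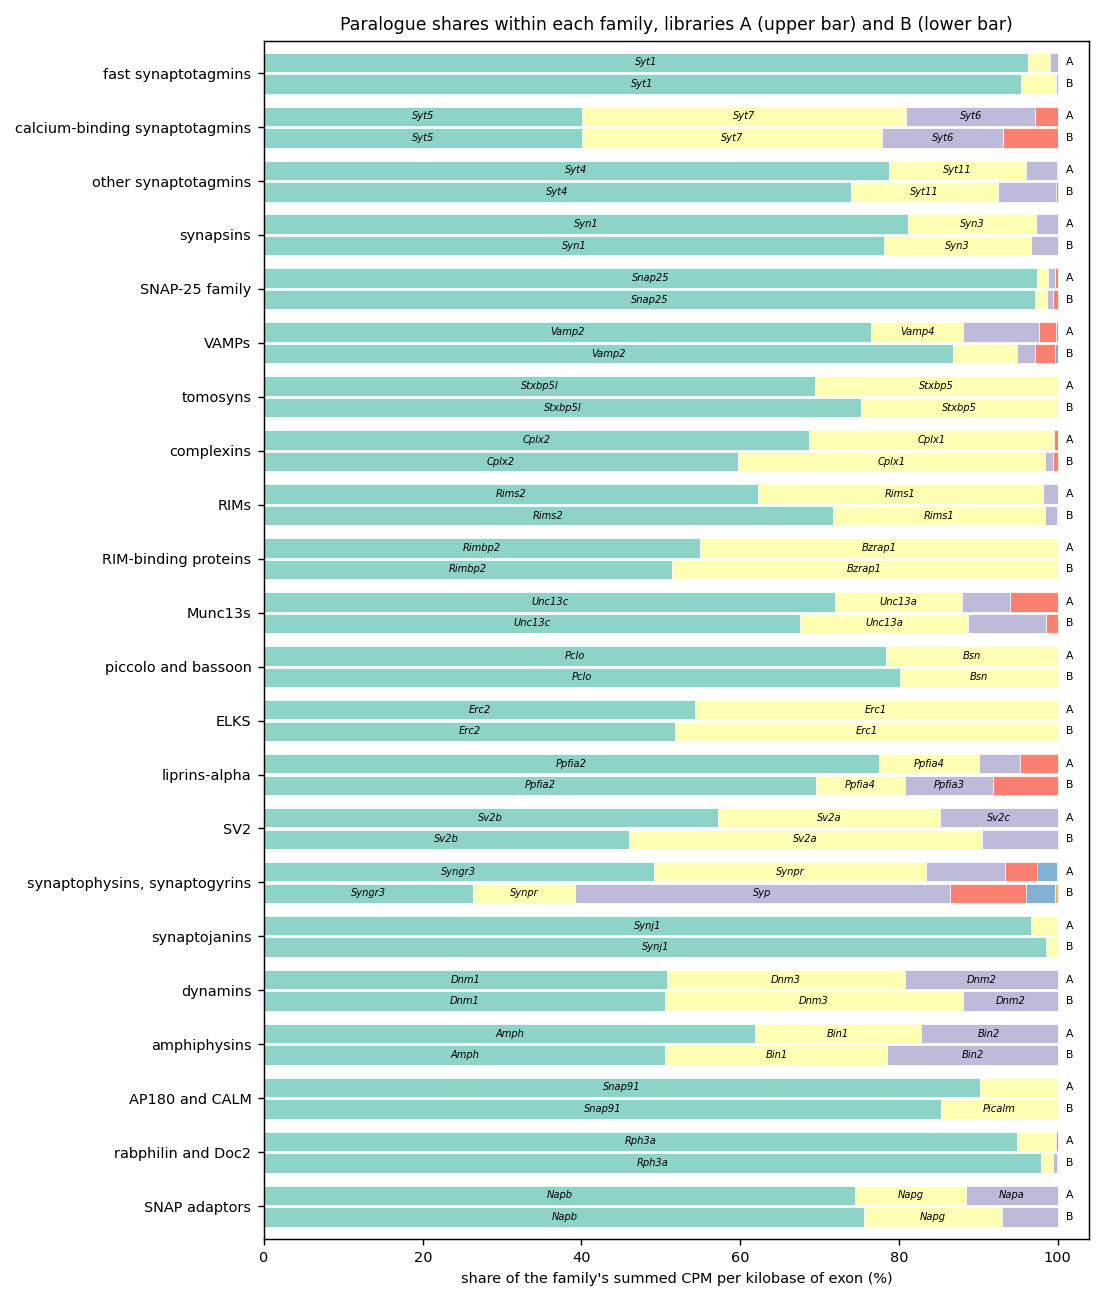
Share of each gene in its family's summed level per kilobase, in percent, for library A and library B. Snap25, Syt1, Synj1 and Rph3a fill over 90% of their bars in both libraries, whereas the complexins, SV2, dynamins and ELKS are divided among neighbours, and Syngr3, Synpr and Syp change order between A and B.

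Among the fast calcium sensors, transcript level per kilobase lay almost wholly with Syt1. Syt1 is the fast sensor of most forebrain synapses, Syt2 that of many hindbrain and motor synapses, and Syt9 is a relative that can also drive fast release. Syt1 stood at 1229 CPM in A and 2005 CPM in B, Syt9 at 16.7 and 43.8 CPM and Syt2 at 11.1 and 4.80 CPM. The order of the 3 genes was the same in both libraries. Per kilobase Syt1 was 25.5-fold above Syt9 (9.03 to 72.2) and 186-fold above Syt2 (57.7 to 600), and it held 96.3% and 95.4% of the level of the 3 genes.

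The slower calcium-binding synaptotagmins were mixed. Syt7, a sensor linked to asynchronous release and facilitation, stood at 141 and 223 CPM, Syt5 at 44.1 and 75.2 CPM and Syt6 at 44.0 and 69.8 CPM. Syt3, a high-affinity sensor, was lower at 4.04 and 16.9 CPM. Per kilobase Syt5 and Syt7 were level, at 1.03-fold (0.42 to 2.51), with Syt7 leading in A and Syt5 in B. With no length correction Syt7 was the higher, with a Syt5 over Syt7 ratio of 0.327 (0.134 to 0.799). Syt5 stood 2.57-fold above Syt6 (1.08 to 6.10) and 7.47-fold above Syt3 (2.41 to 23.1). Syt10, a sensor in secretion of growth factors, had no read in either library, so per kilobase Syt5 was at least 334-fold higher, taking 3 counts over both libraries as the floor.

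Of the synaptotagmins with altered or no calcium binding, Syt4 was the highest. Syt4, found on dense-core vesicles and in the Golgi, stood at 834 CPM in A and 946 CPM in B, close to the level of Syt1 in CPM/kb (214 and 243, against 147 and 240). Syt11, a regulator of vesicle retrieval, stood at 245 and 317 CPM, and Syt13 at 39.8 and 90.4 CPM. Per kilobase Syt4 was 4.24-fold above Syt11 (1.58 to 11.3), 4.55-fold in A and 3.99-fold in B, and in B alone the interval just held 1. Syt12 was near the detection level at 1.01 and 3.49 CPM.

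Other calcium-binding proteins of the vesicle were led by Rph3a. Rph3a, or rabphilin, an effector of the vesicle GTPase Rab3, stood at 524 CPM in A and 710 CPM in B. Doc2a and Doc2b are high-affinity sensors linked to spontaneous and asynchronous release. Doc2a stood at 16.3 and 6.91 CPM and Doc2b at 1.01 and 0.873 CPM, which put Rph3a 32.1-fold (10.7 to 96.9) and 616-fold (208 to 1825) above them per kilobase. Of the exon bases of Doc2a, 39.4% are shared with another gene in GENCODE M21, and strand use in the counting is not given, so its low level is uncertain.

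The complexins above the detection level were those of conventional synapses. Cplx2 stood at 247 CPM in A and 324 CPM in B and Cplx1 at 49.4 and 93.4 CPM. Per kilobase they did not separate, at 1.78-fold (0.71 to 4.42), although on coding length or with no length correction Cplx2 was 3.998-fold higher (1.61 to 9.96). Cplx3 and Cplx4, the complexins of ribbon synapses and some amacrine cells, were at or near the detection level. Cplx3 had 0.884 and 1.75 CPM, and Cplx4 had no read in A and 2.33 CPM in B. Cplx2 stood 130-fold above Cplx3 (45.2 to 374) and 96.6-fold above Cplx4 (28.2 to 331). Of 5 markers of ribbon synapse cells 1 was detected, with summed levels of 20.7 and 9.60 CPM, and 4 of 9 bipolar cell markers were detected, with summed levels of 254 and 140 CPM. Among the bipolar cell markers Prkca stood at 131 and 95.5 CPM, Grm6 at 96.4 and 0.582 CPM, Otx2 at 20.3 and 20.0 CPM and Grik1 at 3.16 and 16.4 CPM, while Cabp5 and Pcp2 had no read in A and 0.146 and 0.0728 CPM in B. The part of such cells in the Cplx3 and Cplx4 values was not tested.

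Synapsins, which tether vesicles in the reserve pool, were high. Syn1 stood at 810 CPM in A and 895 CPM in B, Syn3, a synapsin of developing neurons, at 601 and 792 CPM, and Syn2 at 56.8 and 81.7 CPM. Syn2 was the low one in both libraries, 26.2-fold below Syn1 per kilobase (10.3 to 66.8). Syn1 over Syn3 was 4.56-fold (1.65 to 12.5) on summed exons. That call rested on the length used, since the ratio was 1.79-fold (0.65 to 4.93) on the longest transcript and 1.004-fold (0.36 to 2.76) on coding length. Of the exon bases of Syn3, 14.1% are shared with Timp3, which lies within it.

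In the SV2 and synaptophysin families no leader separated. SV2 proteins are vesicle glycoproteins that bind synaptotagmin and serve as receptors for botulinum toxin. Sv2b stood at 211 and 263 CPM, Sv2a at 57.2 and 141 CPM, and Sv2c at 63.0 in both. Sv2b and Sv2a did not separate per kilobase at 1.32-fold (0.53 to 3.33), with 2.04-fold in A and 1.03-fold in B, whereas on coding length the ratio was 2.60-fold (1.03 to 6.54). Sv2c was lower than Sv2b by 4.34-fold (1.80 to 10.5).

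Synaptophysin and synaptoporin, related membrane proteins of the vesicle, differed in opposite directions between the libraries. Syp stood at 79.6 CPM in A and 228 CPM in B, and Synpr at 493 CPM in A and 112 CPM in B. Syngr3, a synaptogyrin not of the 51, stood at 155 and 50.5 CPM. Per kilobase Syngr3 led in A with 49.1% of the family and Syp in B with 47.3%, and Synpr went from 34.2% to 12.8%. No leader could be given, since Syngr3 over Synpr was 1.55-fold (0.54 to 4.42) and Syngr3 over Syp 1.68-fold (0.64 to 4.42). With no length correction Synpr was the higher, at a Syngr3 over Synpr ratio of 0.340.

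At the active zone the giant scaffold Pclo, piccolo, had the highest level per length of the active zone genes among the 51, at 59.6 CPM/kb in A and 90.4 CPM/kb in B, from 1339 and 2031 CPM. Its relative Bsn, bassoon, stood at 263 and 358 CPM. Per kilobase Pclo was 3.86-fold above Bsn (1.40 to 10.7), with 3.62-fold in A and 4.03-fold in B, and either library alone gave an interval that held 1. The ELKS scaffolds Erc1, at 370 and 594 CPM, and Erc2, the form of the presynaptic active zone, at 263 and 382 CPM, were level per kilobase at 1.12-fold (0.417 to 3.0003). Liprins place active zones in axons, and there Ppfia2 led. Ppfia2 stood at 451 and 372 CPM and was 6.17-fold above Ppfia4 (2.44 to 15.6), 9.20-fold above Ppfia3 (3.51 to 24.1) and 11.5-fold above Ppfia1 (4.51 to 29.5). Of its exon bases, 24.5% are shared with another gene.

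RIM proteins recruit calcium channels and dock vesicles. Rims2 stood at 177 CPM in A and 379 CPM in B and Rims1 at 72.3 and 99.9 CPM. Rims2 over Rims1 was 2.29-fold per kilobase (0.91 to 5.78), and it separated at 4.34-fold (1.72 to 10.9) on the longest transcript and 2.93-fold (1.16 to 7.38) on coding length. Rimbp2, which links RIM to calcium channels, stood at 27.9 and 34.4 CPM, level with its paralogue Bzrap1 at 1.12-fold (0.45 to 2.80).

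Munc13 proteins prime vesicles by opening syntaxin. The Munc13 with the highest level was Unc13c, best known from cerebellar granule cells, at 185 CPM in A and 312 CPM in B. Unc13a, the main form of excitatory forebrain synapses, stood at 58.6 and 140 CPM and Unc13b at 40.2 and 117 CPM. The 3 genes kept this order in both libraries. Unc13c over Unc13a was 3.58-fold per kilobase (1.41 to 9.13). This call ended in B alone (3.19-fold), on coding length (1.95-fold, 0.77 to 4.98) and with no length correction (2.50-fold, 0.98 to 6.36). Unc13c over Unc13b was 8.17-fold (3.18 to 20.97).

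Of the vesicle retrieval genes among the 51, Synj1 and Snap91 were the highest per kilobase. Synj1, the lipid phosphatase that strips clathrin coats from vesicles, stood at 733 CPM in A and 894 CPM in B, 42.3-fold above Synj2 per kilobase (15.2 to 118). Snap91, or AP180, the neuronal clathrin adaptor that retrieves Vamp2, stood at 679 and 909 CPM, 6.88-fold above its widely expressed relative Picalm (2.56 to 18.5). Both led in each library.

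Dynamins pinch off the vesicle, and amphiphysins bend the neck and bring dynamin there. Dnm3 stood at 484 and 753 CPM and Dnm1 at 176 and 217 CPM, but Dnm3 has the longer summed exons, and per kilobase Dnm1 over Dnm3 was 1.48-fold (0.56 to 3.89). On coding length the pair turned round, to a ratio of 0.317 (0.121 to 0.832), so which of these dynamins was more used could not be settled. The widely expressed Dnm2 was 3.34-fold below Dnm1 (1.39 to 8.02). Amph stood at 71.2 and 95.5 CPM and Bin1 at 21.9 and 48.0 CPM, with a ratio of 2.17-fold per kilobase whose interval held 1 (0.88 to 5.35).

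A further list of 76 release genes outside the set, fixed for comparison, had a median of 25.5 and 28.3 CPM, or 4.04 and 5.40 CPM/kb, and 60 were detected. Of them 15 reached 100 CPM in both libraries. Highest was Slc17a6, which loads glutamate into the vesicles of ganglion cells, at 1732 and 1439 CPM, followed by the scaffold Cask, at 1223 and 838 CPM, and the priming factor Cadps, at 1069 and 793 CPM. The monoamine transporter Slc18a2 also reached 274 and 372 CPM, while the inhibitory transmitter transporter Slc32a1 and the acetylcholine transporter Slc18a3 stayed under 1 CPM in both libraries. The 22 postsynaptic genes taken for contrast had a median of 55.5 and 74.7 CPM, or 7.56 and 9.74 CPM/kb.

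The libraries came from different litters. Between them 36 of the 51 genes lay within 2-fold, or 70.6%, where 57.0% of all genes tested and 70.9% of those with a mean of 10 CPM or more did, the latter a share near that of the set. Of the 51 genes 24 lay within 1.5-fold, a count not made over all genes. In B 42 were higher, likewise a count not made over all genes. Over the 51 genes the median log2 ratio of B over A was 0.520. That median was 0.532 over all genes tested and 0.343 over those with a mean of 10 CPM or more, so most genes leaned the same way. The exact two-sided binomial test with Benjamini-Hochberg adjustment over 14107 genes, called at 2-fold or more, found 15 of the 51 genes different, where 42.6% of all genes were, and 2258 of the 7769 genes with a mean of 10 CPM or more. It found 11 higher in B, against 32.3% of all genes, and 4 higher in A, against 10.3%. Of the 7769 genes with a mean of 10 CPM or more, 1480 were higher in B and 778 higher in A. The test compares 1 library with 1 other and no condition, and it allows for counting error only, with reads taken as independent, so it does not carry the spread between libraries. Scaled with TMM, which shifts every log2 ratio of B over A by -0.39, 9 genes were called, 5 higher in B and 4 higher in A, where 37.2% of all genes were called. With TMM no share is given for the genes with a mean of 10 CPM or more.

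The 4 genes higher in A were Synpr (4.39-fold), Vamp1 (4.17-fold), Doc2a (2.36-fold) and Syt2 (2.31-fold), and the 4 were called with TMM too. Of the 11 higher in B, Syt3 (4.18-fold), Syt12 (3.46-fold), Unc13b (2.91-fold), Syp (2.87-fold) and Cplx4, with no read in A, were called under both scalings. The other 6 were called with the gene totals but not with TMM: Syt9 (2.63-fold), Sv2a (2.46-fold), Unc13a (2.40-fold), Syt13 (2.27-fold), Bin1 (2.20-fold) and Rims2 (2.14-fold). Beside these, Grm6, of ON bipolar cells, stood at 96.4 CPM in A and 0.582 CPM in B, and Slc17a7, of photoreceptors and bipolar cells, at 10.99 and 0.509 CPM. The ganglion cell markers summed to 12389 CPM in A and 17355 CPM in B, but they did not all go the same way. Rbpms, at 1554 and 1021 CPM, and Slc17a6, at 1732 and 1439 CPM, were lower in B, and the others of that list were higher. Of the J-RGC markers Jam2 was lower in B, at 2344 and 1203 CPM, and Tbr1 higher, at 60.9 and 91.2 CPM. The part of these differences between the libraries in the 15 genes was not tested. Scaled by gene totals, Sv2c, Napb, Stxbp5, Syn1 and Syt4 were among the most stable genes and differed by 1.13-fold or less. This ranking depends on scaling, since the TMM shift of -0.39 in log2 moves each of them further from equal levels.

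**Figure D4:**
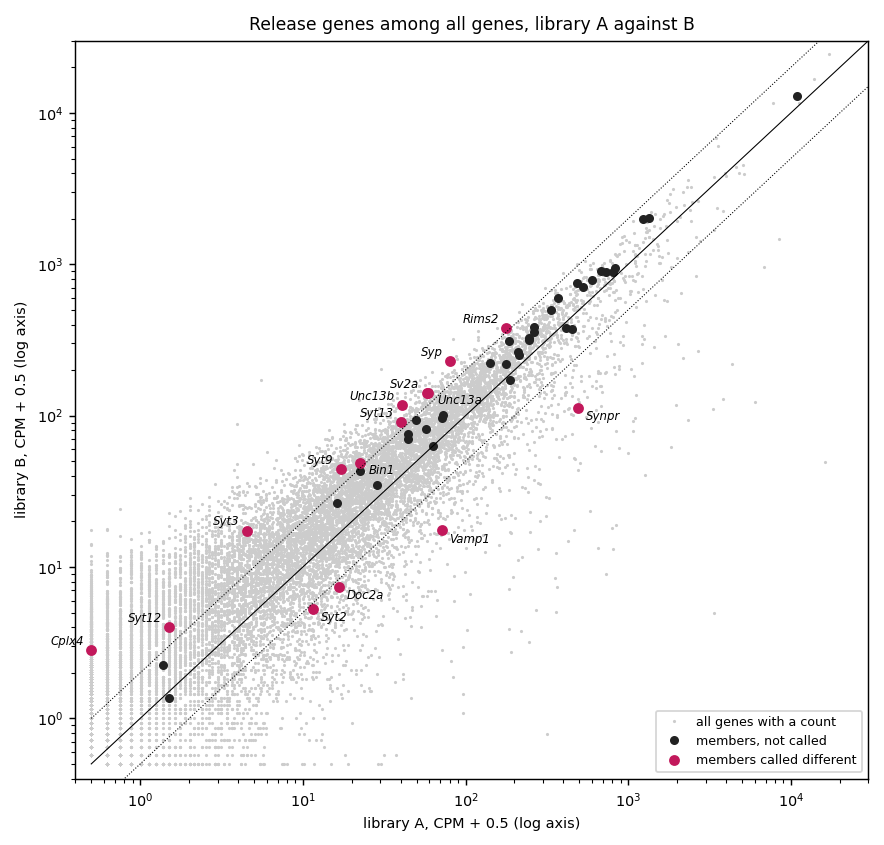
Level of every gene with a count in library A against library B, as CPM + 0.5 on log axes, with the 51 release genes drawn larger and those called different named. The solid line marks equal levels and the dotted lines 2-fold; 11 of the named genes lie above the upper line and Synpr, Vamp1, Doc2a and Syt2 below the lower one.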

How the data were processed

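RNA-seq counts of 2 libraries of 1 group were used. The values are raw counts of reads by gene symbol, deposited by the authors as a file for each library. Per the submitters' processing notes, the tools were HTSeq 0.6.1, TopHat2 2.0.10 and Trimmomatic 0.32, and the build was mm9. Settings, annotation and use of strand are not stated there or in the labels, so overlapping genes and antisense partners may share reads. Of the 51 genes, 22 share at least 1 exon base with another gene in GENCODE M21 and 7 share over 10%. Summary lines of each file, with 73.2% of reads in A and 69.1% in B, stayed out of all totals.

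Counts were scaled to 1000000 per library (CPM). Median levels used log2 of CPM + 0.5. Summed exon lengths came from GENCODE M21, on another build than the counts, and no coordinate was taken from it. Over 11272 genes edgeR 4.0.16 (R 4.3.3), in an intercept-only fit with TMM factors, gave the trended dispersion from which, with counting error, intervals of ratios were computed, treating the 2 genes as independent. With 1 group there was no contrast for its quasi-likelihood test. Counts of A and B were compared by exact binomial tests over genes that had 10 or more counts summed over both, with Benjamini-Hochberg adjustment, called under 0.05 and at 2-fold or more. The ratio intervals were tried on simulated counts of random gene pairs with 1 fixed dispersion, and the binomial test on simulated counts with counting error only. These trials do not cover leaders picked from the data, or the binomial test under spread between libraries. DESeq2 1.42.0 gave other size factors, and Python 3.11.15 was used for the rest. Litters differ between the libraries, so the spread holds animals and preparation together.

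The genes, families and lists were chosen with earlier results of these data known. All 51 genes are given with values. Results of 1 of the 23 families and of some other genes are not reported here, though they remain in the counts. Other genes are named where they belong to a family compared, are markers, or stand at 100 CPM or more, or under 1 CPM, in both libraries.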

Additional observations from a re-analysis of the deposited data

How the results depend on the processing

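The call of genes that differ between the libraries depended most on scaling and on the minimum fold. Of 51 genes 15 were called with gene totals (42.6% of all genes), 9 with TMM (37.2%), 9 with DESeq2 size factors (37.1%) and 48 with no minimum fold (77.8%). The 9 genes were among the 15 in each case. The number detected stayed between 45 and 50 under the settings tried, and the median level between 7.15 and 7.43 (log2). Separated families numbered 13, with 15 on GENCODE coding length (a choice made after seeing the data), 15 with no length correction, 9 without library A and 11 without library B, where intervals are wider by construction. The length used turned round 3 pairs that had not been separated, with intervals that excluded 1. The log2 ratio of Syt5 over Syt7 was -1.61 and that of Syngr3 over Synpr -1.56 with no length correction, and that of Dnm1 over Dnm3 was -1.66 on coding length and -1.65 with none. Other turns had intervals that held 1. Erc2 over Erc1 went to -0.089 on the longest transcript, -0.420 on coding length and -0.580 with no length correction. Rimbp2 over Bzrap1 went to -0.091 with no length correction. The summed exons of a gene hold all its annotated ends, and which ends these cells use was not tested. Coding lengths from RefSeq proteins were not run. No paired analysis was possible because there was 1 group. Depth limits the genes near 1 CPM, Cplx3, Cplx4, Doc2b and Syt12, and with 2 libraries every SD is rough.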
